A study of Mus musculus with 12 samples.

Results

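Brown adipose tissue, the heat-producing fat, holds mature fat cells that no longer divide beside stromal, vascular and immune cells that can. The genes followed here encode the D cyclins (Ccnd1, Ccnd2, Ccnd3), the kinases they activate (Cdk4, Cdk6), the CIP/KIP inhibitors (Cdkn1a, Cdkn1b, Cdkn1c) and the INK4 inhibitor Cdkn2c. They were chosen by gene family, and they were picked with earlier results of this same comparison known, among them the lower level of Ccnd1. Every probe set of the array that the platform table assigns to one of these genes alone was taken, whatever its value. That gave 25 probe sets for 9 genes, of 34945 single-gene probe sets and 18193 genes in all.

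The tissue came from adult male ob/ob mice, which lack working leptin and become obese, aged 3 months and kept on normal chow. One group of 6 mice received a single dose of 1 mg/kg of an agonistic antibody against the FGF receptor FGFR1 (anti-FGFR1) by injection into the abdominal cavity. The other group of 6 mice was pair-fed, that is, given food matched to the antibody group, and received control IgG in the same way. Tissue was taken on day 4, and RNA of each mouse was hybridised to its own one-colour Affymetrix array, so each replicate is a separate animal. All groups carry the ob/ob mutation, and 1 time point and 1 dose were sampled.

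D cyclins are short-lived proteins whose genes are switched on by growth factors, in large part through the ERK kinase pathway that FGF receptors feed. Bound to CDK4 or CDK6, they phosphorylate the retinoblastoma protein, which releases E2F factors and lets the cell start copying its DNA. INK4 proteins block CDK4 and CDK6 directly, whereas the CIP/KIP proteins p21 (Cdkn1a), p27 (Cdkn1b) and p57 (Cdkn1c) bind the assembled cyclin and kinase complexes. In fat, cells that become adipocytes leave the cycle, and mice without p21 and p27 have more fat cells.

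The values are log2 expression as deposited, and 1 unit is a doubling. For each gene the brightest probe set over all 12 arrays stands for the gene, and its other probe sets are described beside it. A fold change is the anti-FGFR1 mean less the control IgG mean on the log2 scale, with the standard error (SE) from limma, a linear model that shares information on the spread across genes. A gene or probe set is called when its Benjamini-Hochberg adjusted p over the whole table is under 0.05. Because the genes were picked with this comparison known, their folds, adjusted p values and calls are printed as a description of the fit to the whole table, and they support nothing independent of that choice. The level of one probe set cannot be set against that of another, so levels are compared between groups only.

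Among all 18193 genes, 8.03% were called, 2.94% higher and 5.09% lower after anti-FGFR1. Of the 9 genes, 1 was called higher (Cdkn2c), 2 were called lower (Ccnd1 and Cdkn1a) and 6 were not called. The median log2 fold change of the 9 was -0.033, against 0.0091 over all genes tested, with 4 genes above 0 and 5 below. Per probe set, 6.9% of all single-gene probe sets were called, and of the 25 probe sets here 1 was called higher, 4 lower and 20 not called.

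The tissue and the arrays were checked first. Ucp1, the uncoupling protein of brown fat, averaged 14.55 in anti-FGFR1 mice and 14.52 in control mice. The lipid droplet protein gene Cidea averaged 14.34 and 14.37, and neither of these brown adipocyte genes was called. The per-array mean of 9 brown adipocyte markers ran from 12.5 to 12.7 in anti-FGFR1 mice and from 12.2 to 12.6 in control mice (exact permutation p = 0.0411, adjusted 0.074). Of the 9, 2 were called higher, Elovl3 at 0.76 ± 0.19 and Cox7a1 at 0.16 ± 0.05. The mean of 14 endothelial markers ran from 9.42 to 9.66 in anti-FGFR1 mice and from 9.67 to 9.93 in control mice (exact permutation p = 0.00216, the smallest this design can give, and 0.00972 after adjustment over 9 such measures), with 8 of 14 markers called lower. The mean of 10 smooth muscle and pericyte markers ran from 9.62 to 9.82 in anti-FGFR1 mice and from 9.93 to 10.1 in control mice (exact permutation p = 0.00216, adjusted 0.00972), with 6 of 10 called lower. Macrophage markers had a mean of 9.93 to 10.3 in anti-FGFR1 mice and 9.69 to 10.3 in control mice (exact permutation p = 0.0606, adjusted 0.0909), with 3 of 15 called higher. The mean of 5 B cell markers ran from 7.12 to 7.47 in anti-FGFR1 mice and from 6.97 to 7.13 in control mice (exact permutation p = 0.00433, adjusted 0.013), with 2 of 5 called higher. Means of fibroblast and preadipocyte, T cell and skeletal muscle markers overlapped between the groups (adjusted exact permutation p of 0.122, 0.0946 and 0.6), though 5 of 11 fibroblast and preadipocyte markers were called, 3 higher and 2 lower. Skeletal muscle markers were lowest in anti-FGFR1 replicate 5 (mean 6.87) and control IgG replicate 6 (mean 9.37), 1 mouse of each group. The log2 ratio of the 3' over the 5' control probe sets of Actb and Gapdh, a sign of RNA quality, ran from 0.161 to 0.232 in anti-FGFR1 mice and from 0.139 to 0.221 in control mice (exact permutation p = 0.0368, adjusted 0.074). In whole tissue, fewer cells of a type and less RNA per cell cannot be told apart.

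Stretches just upstream of some of these genes were searched for short motifs. The RefSeq promoter table of the mouse assembly GRCm38.p6 matched 6 of the 9 genes with 9 start sites, and the 250 bases before each start were used. It had no entry for Ccnd1, Ccnd2 or Cdkn1c. The windows of the called inhibitors (1 start site of Cdkn2c) are shown, with that of the kinase with the most motif matches. They read 5′ to 3′ on the strand of the gene, and matches to the searched motifs are in capitals.
Cdkn1a, first start site, chr17:29090729-29090978 (+): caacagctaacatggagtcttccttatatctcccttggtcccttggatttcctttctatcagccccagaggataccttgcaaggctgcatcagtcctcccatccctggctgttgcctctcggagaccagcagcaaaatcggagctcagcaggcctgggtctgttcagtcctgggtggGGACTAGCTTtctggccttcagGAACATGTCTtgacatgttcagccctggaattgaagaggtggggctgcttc
Cdkn1a, second start site, chr17:29093519-29093768 (+): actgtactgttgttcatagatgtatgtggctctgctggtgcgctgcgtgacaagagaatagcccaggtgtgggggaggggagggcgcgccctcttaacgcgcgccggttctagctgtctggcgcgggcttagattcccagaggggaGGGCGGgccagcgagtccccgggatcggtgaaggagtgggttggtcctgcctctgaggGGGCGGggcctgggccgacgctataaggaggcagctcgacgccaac
Cdkn2c, chr4:109666757-109667006 (-): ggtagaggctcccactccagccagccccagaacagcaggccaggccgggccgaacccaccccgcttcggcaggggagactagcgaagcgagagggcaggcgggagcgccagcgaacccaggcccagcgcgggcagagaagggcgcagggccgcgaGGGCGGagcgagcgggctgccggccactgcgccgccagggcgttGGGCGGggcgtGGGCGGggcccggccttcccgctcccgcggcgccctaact
Cdk4, chr10:127063285-127063534 (+): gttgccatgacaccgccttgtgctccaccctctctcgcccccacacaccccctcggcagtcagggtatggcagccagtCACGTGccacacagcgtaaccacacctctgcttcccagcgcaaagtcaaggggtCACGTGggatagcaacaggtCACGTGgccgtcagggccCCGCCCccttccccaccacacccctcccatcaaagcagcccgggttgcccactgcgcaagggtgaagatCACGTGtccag
The capitals of the first Cdkn1a window are 2 matches to the p53 decamer, the unit that the tumour suppressor p53 binds in pairs, at -73 and -51 from the start. Other bases separate these 2 matches, and they are not shown here to form such a pair. The bases right after the match at -51, tgacatgttc, resemble the unit but break the searched pattern, so they stay in lower case. The second Cdkn1a window holds 2 GC boxes (GGGCGG, bound by SP factors), and the Cdkn2c window shown holds 3. The other Cdkn2c window, not shown, holds 0 matches to any searched motif. The Cdk4 window holds 4 E-boxes (CACGTG, bound by MYC and its relatives) and 1 GC box on the other strand. Of 32851 promoter windows of the same length, 7.13% held the p53 decamer, 32.7% a GC box and 6.02% this E-box, on either strand. Searches for E2F (TTTNGCGC, 1.13% of windows), CRE (TGACGTNA, 2.52%), AP-1 (TGANTCA, 6.75%) and STAT (TTCNNNGAA, 7.02%) sites found 0 matches in the windows of the 6 genes, and ETS (CCGGAAG, 6.91%) matched once, in Ccnd3. A match is a run of letters and says nothing of binding in this tissue.

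Cyclin D1 was the member that differed most. Ccnd1 (probe set 1417420_at) read 9.60 at the lowest, 9.96 at the median and 10.42 at the highest in anti-FGFR1 mice, against 10.63, 10.85 and 11.13 in control IgG mice. All 6 anti-FGFR1 arrays lay below the lowest control, so the groups did not overlap. The share of all genes without overlap is not given here, so a lack of overlap, here and below, only describes a gene. Means were 9.97 ± 0.26 in anti-FGFR1 mice and 10.87 ± 0.18 in control mice (SD, n = 6 each), a log2 fold change of -0.90 ± 0.11 (SE, 95% interval -1.14 to -0.65, limma adjusted p = 0.000295) or 1.86-fold lower. Ccnd1 encodes the D cyclin most closely tied to growth factor signals.

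**Figure D1:**
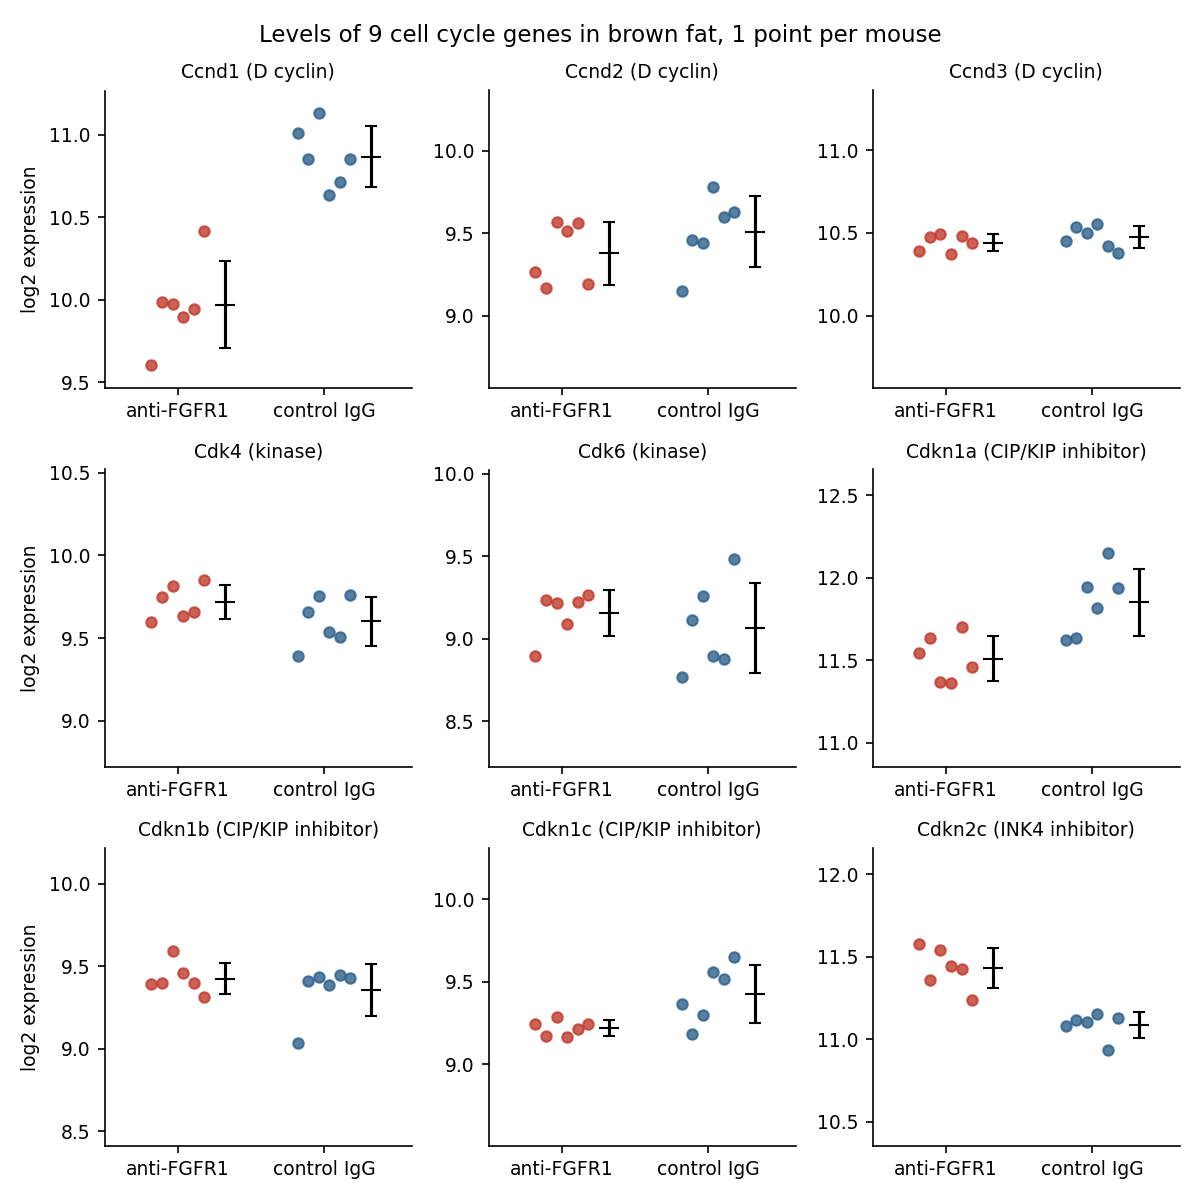
Log2 expression of the 9 genes (vertical axes, each spanning the same width) in anti-FGFR1 mice on the left and control IgG mice on the right, 1 point per mouse, with the group mean and SD drawn beside the points. The groups are apart for Ccnd1, where anti-FGFR1 mice end at 10.42 and control mice begin at 10.63, and for Cdkn2c, where anti-FGFR1 mice begin at 11.24 and control mice end at 11.15, and they overlap for the other 7 genes. The share of all genes with such a gap is not given here.

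All 3 probe sets of Ccnd1 gave this separation. Probe set 1448698_at read 9.49 to 10.32 in anti-FGFR1 mice and 10.41 to 10.83 in control mice (log2 fold change -0.74 ± 0.11). Probe set 1417419_at read 8.06 to 8.88 in anti-FGFR1 mice and 9.03 to 9.48 in control mice (-0.75 ± 0.11). On each of the 3, anti-FGFR1 replicate 1 was the lowest of its group and replicate 6 the highest, and control IgG replicate 3 was the highest control. The mice therefore kept their order at these ends whichever probe set was read. Ccnd1 kept its call under 24 of 25 other ways of processing, between -1.01 and -0.79. With the mean of the endothelial markers as a covariate, it was at -0.94 ± 0.21 and no longer called (limma adjusted p = 0.0577). With the macrophage mean it was at -1.01 ± 0.13 and with the 3' over 5' ratio at -0.88 ± 0.15, both called.

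The other D cyclins were not called. Ccnd2 (1434745_at), cyclin D2, read 9.17, 9.39 and 9.57 (lowest, median, highest) in anti-FGFR1 mice, against 9.15, 9.53 and 9.78 in control mice. The groups overlapped throughout, with a log2 fold change of -0.13 ± 0.10 (95% interval -0.35 to 0.09, limma adjusted p = 0.487). Its 7 probe sets all lay below 0, between -0.17 and -0.06, and 0 were called, but they read the same mice and are not separate evidence. Of these 7, 1416124_at and 1416123_at were below the median of the array on all 12 arrays, where RMA pulls differences toward 0. Ccnd3 (1415907_at), cyclin D3, which also acts with the fat cell factor PPAR gamma in mouse cells, had the narrowest spread among the D cyclins. It read 10.37, 10.46 and 10.49 in anti-FGFR1 mice, against 10.38, 10.48 and 10.55 in control mice. Its log2 fold change was -0.033 ± 0.044 (95% interval -0.13 to 0.061, limma adjusted p = 0.712), and its other probe sets were at -0.023 and -0.0030.

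The intervals of Ccnd2 and Ccnd3 do not reach the difference of Ccnd1. Their lower ends, -0.35 and -0.13, lie above the upper end of the Ccnd1 interval, -0.65. This compares folds, not levels, and the difference between the genes was not itself tested. The lower level of Ccnd1 was known when the genes were picked, so the gap only describes these values.

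**Figure D2:**
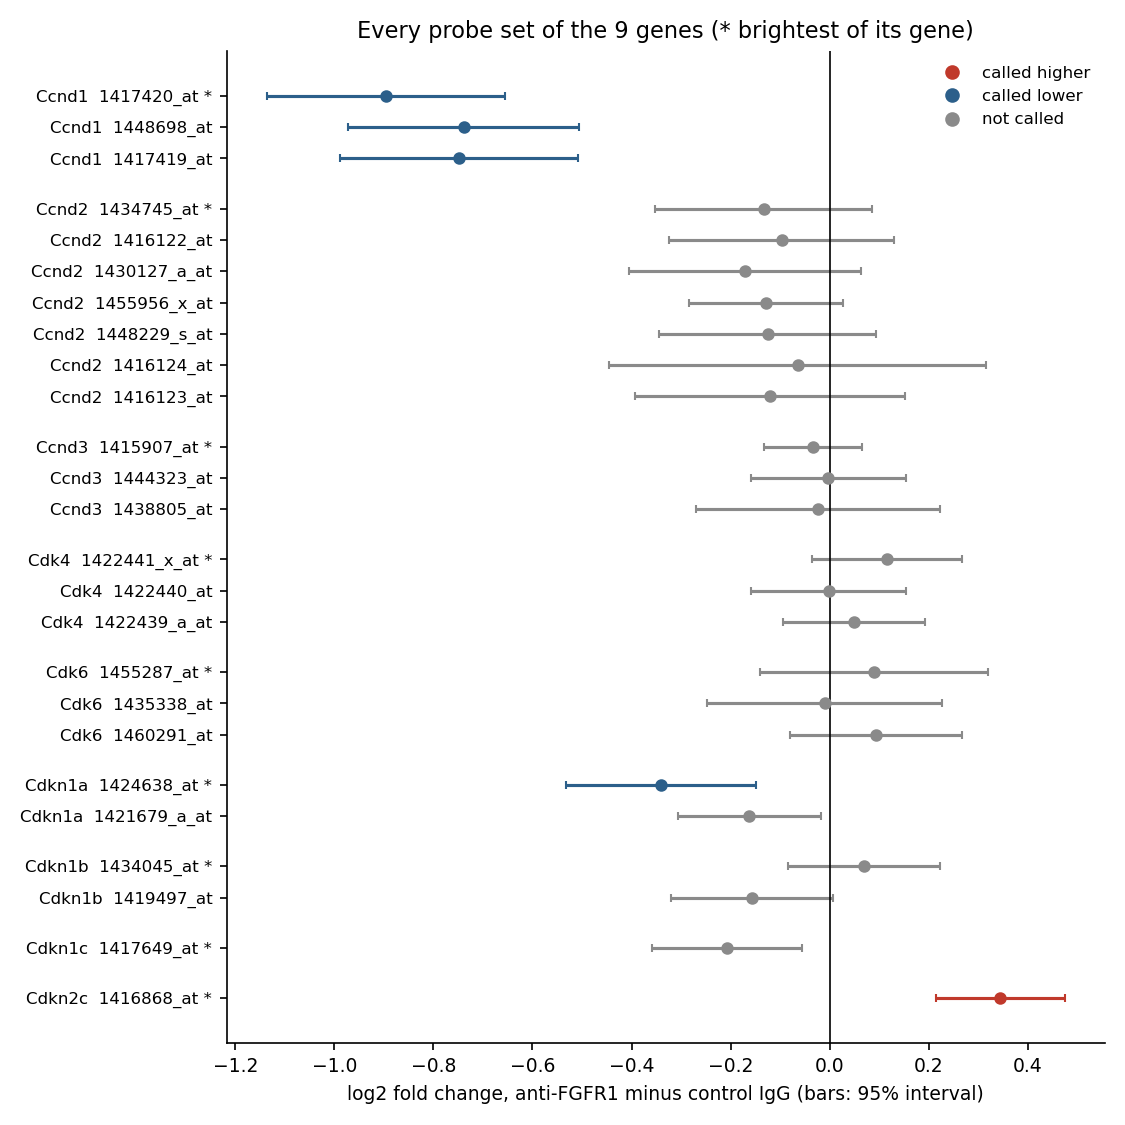
Log2 fold change, anti-FGFR1 minus control IgG, of each of the 25 probe sets (horizontal axis) with its 95% interval, grouped by gene, an asterisk marking the brightest of each gene. The 3 Ccnd1 probe sets stand at -0.90, -0.74 and -0.75, the 7 of Ccnd2 between -0.17 and -0.06, and the Cdkn2c probe set alone is called higher.

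Neither kinase was called. Cdk4 (1422441_x_at) read 9.60, 9.70 and 9.85 in anti-FGFR1 mice, against 9.39, 9.60 and 9.76 in control mice, and 2 of 6 anti-FGFR1 arrays exceeded every control. Its log2 fold change was 0.12 ± 0.07 (95% interval -0.034 to 0.27, limma adjusted p = 0.352), and its other probe sets were at 0.05 and -0.0023. With the macrophage mean as a covariate Cdk4 was at -0.010 ± 0.062, and no alternative led to a call. Cdk6 (1455287_at) read 8.90, 9.22 and 9.26 in anti-FGFR1 mice, against 8.77, 9.003 and 9.48 in control mice. The control range enclosed the anti-FGFR1 range, and the log2 fold change was 0.09 ± 0.11 (95% interval -0.14 to 0.32, limma adjusted p = 0.682), with its other probe sets at 0.09 and -0.010. Cdk6 is known from blood cells, where it is the main partner of D cyclins. On this brightest probe set Cdk6 was lowest in replicate 1 of both groups, the mouse with the lowest macrophage mean of its group. Probe set 1460291_at differed, with control IgG replicate 1 the highest control (7.18) and anti-FGFR1 replicate 2 the lowest of its group (6.89). With the macrophage mean as a covariate the value of Cdk6 turned to -0.16 ± 0.07 and was still not called (limma adjusted p = 0.129). The part of macrophages in the level of Cdk6 was not tested.

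Of the CIP/KIP inhibitors, Cdkn1a was called lower and the other genes were not called. Cdkn1a (1424638_at), which encodes p21, an inhibitor induced by p53 and by growth factor signals, read 11.36, 11.50 and 11.70 in anti-FGFR1 mice, against 11.62, 11.88 and 12.15 in control mice. Of the anti-FGFR1 arrays 4 of 6 lay below all controls, and the groups overlapped at 11.62 to 11.70. Means were 11.51 ± 0.14 in anti-FGFR1 mice and 11.85 ± 0.20 in control mice (SD, n = 6 each), a log2 fold change of -0.34 ± 0.09 (SE, 95% interval -0.53 to -0.15, limma adjusted p = 0.0309) or 1.27-fold lower. Its other probe set, 1421679_a_at, read 7.94 to 8.21 in anti-FGFR1 mice and 8.10 to 8.48 in control mice and was not called (-0.16 ± 0.07, limma adjusted p = 0.177). The call depended on 7 single arrays and ended without any of them, namely anti-FGFR1 replicates 1, 3, 4 and 6 and control IgG replicates 3, 5 and 6, with adjusted p up to 0.0715. It was also lost when the fit held the 3' to 5' ratio (-0.29 ± 0.12, limma adjusted p = 0.227) and with the endothelial mean (-0.14 ± 0.16, limma adjusted p = 0.742). In the last fit the value moved closer to 0 and its error grew, and the part of vessel cells in the lower Cdkn1a was not otherwise tested.

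Cdkn1b (1434045_at), which encodes p27, an inhibitor regulated largely by breakdown of its protein, read 9.31, 9.40 and 9.59 in anti-FGFR1 mice, against 9.03, 9.42 and 9.44 in control mice. Its log2 fold change was 0.07 ± 0.07 (95% interval -0.08 to 0.22, limma adjusted p = 0.618). That value rested on control IgG replicate 1, the lowest mouse, since without it the fold change was 0.0048. The dimmer probe set 1419497_at, below the array median on all 12 arrays, was at -0.16 ± 0.08, so the direction of Cdkn1b is not settled by these probe sets. Cdkn1c (1417649_at), which encodes p57 and is expressed from the maternal copy, read 9.17, 9.23 and 9.29 in anti-FGFR1 mice, against 9.18, 9.44 and 9.65 in control mice. The anti-FGFR1 mice were close together near the low end of the controls, and the control SD was 3.74 times theirs. The log2 fold change was -0.21 ± 0.07 (95% interval -0.36 to -0.06, limma adjusted p = 0.0906). Without control IgG replicate 2, the lowest control, Cdkn1c was at -0.26 and called (limma adjusted p = 0.0265).

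Cdkn2c was the member called higher. Cdkn2c (1416868_at, its single probe set) encodes p18, which holds CDK4 and CDK6 away from D cyclins and is known to rise as cultured mouse cells become fat cells. It read 11.24, 11.44 and 11.58 in anti-FGFR1 mice, against 10.93, 11.11 and 11.15 in control mice. All 6 anti-FGFR1 arrays were above the highest control, so the groups did not overlap. Means were 11.43 ± 0.12 in anti-FGFR1 mice and 11.09 ± 0.08 in control mice (SD, n = 6 each), a log2 fold change of 0.34 ± 0.06 (SE, 95% interval 0.22 to 0.47, limma adjusted p = 0.00265) or 1.27-fold higher. The call stood under 24 of 25 other ways of processing, between 0.31 and 0.38. It was lost with the endothelial mean as a covariate at nearly the same value (0.32 ± 0.11, limma adjusted p = 0.209). Other probe set rules cannot change the value of a gene with a single probe set. All these ways reuse the same mice and are not separate evidence.

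**Figure D3:**
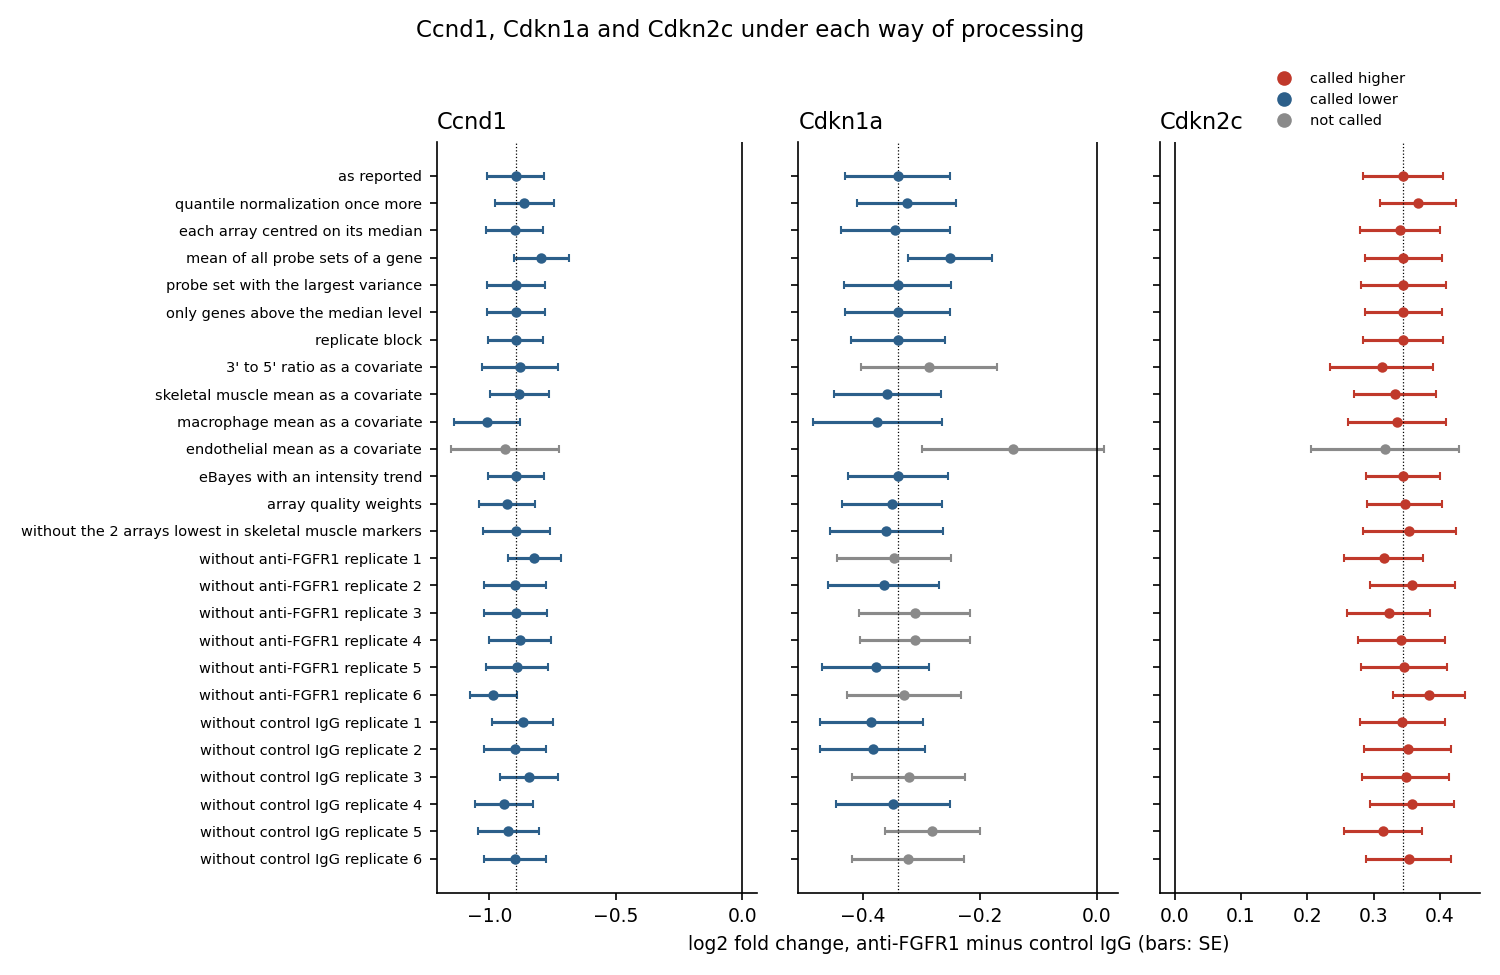
Log2 fold change, anti-FGFR1 minus control IgG, of Ccnd1, Cdkn1a and Cdkn2c (horizontal axes, bars are the SE) under each way of processing (rows), coloured by whether the gene was called. Ccnd1 stays between -1.01 and -0.79 and Cdkn2c between 0.31 and 0.38, whereas Cdkn1a spans -0.39 to -0.14 and is called in 16 of 25 alternatives.

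The remaining genes of the pathway come from 9 lists, drawn up with earlier results of these data known, and each list is given by its counts in the fit over all genes. The other INK4 genes had 0 of 3 called (limma, 1 at an unadjusted p under 0.05). Cdkn2b, which encodes p15, an inhibitor induced by TGF beta, was at -0.27 ± 0.10 (limma adjusted p = 0.109), and Cdkn2d, p19, at -0.08 ± 0.06. With 8.03% of all genes called, 0 of 3 is near the background. That share, 2.94% higher and 5.09% lower, is also the one to set beside the called counts of each list below. Of all 18193 genes, 4081 had an unadjusted limma p under 0.05, the share to set beside such counts here and below.

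Genes that break down or handle D cyclins and p27 had 1 called higher and 1 lower of 10 measured, with a median of -0.05. Fbxo31, an F-box protein that targets cyclin D1 for destruction, read 9.16 to 9.40 in anti-FGFR1 mice and 9.45 to 9.92 in control mice, with no overlap. It was called lower on both of its probe sets, with -0.42 ± 0.08 (limma adjusted p = 0.0039) on the brighter. Cks1b, which helps the SKP2 ligase recognise p27, read 9.98 to 10.46 in anti-FGFR1 mice and 9.15 to 10.11 in control mice and was called higher (0.56 ± 0.14, limma adjusted p = 0.0225). Its call was lost without anti-FGFR1 replicate 6 (0.51), and with the macrophage mean as a covariate the value was 0.24, against 0.90 with the endothelial mean, neither of them called.

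Of 15 transcription factors known to act on D cyclin genes, 1 was called lower and 0 higher, with a median of -0.016. Stat3, the factor activated by cytokine receptors, read 10.71 to 10.84 in anti-FGFR1 mice and 10.94 to 11.18 in control mice. It was called at -0.30 ± 0.05 (limma adjusted p = 0.0011) on its brightest probe set, while its other 3 were at -0.20, -0.18 and -0.014 and not called. With the endothelial mean as a covariate it was at -0.17 and not called.

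Downstream of the kinases, 0 of 13 retinoblastoma proteins and E2F factors were called (limma, 1 at an unadjusted p under 0.05, median 0.032). Rbl2, the pocket protein of resting cells, was at 0.11 ± 0.05, with 0.067 on its other probe set. E2f5, a factor that works with it, was also at 0.11 ± 0.05, but its other probe sets were at -0.028 and -0.026. Of 13 replication and S phase genes 0 were called (3 at an unadjusted p under 0.05), with 10 above 0 and a median of 0.15. Rrm2, the ribonucleotide reductase subunit made in S phase, was at 0.78 ± 0.26 (limma adjusted p = 0.0878), and Tk1, thymidine kinase, at 0.31 ± 0.14. The probe set 1448226_at of Rrm2 was called in the fit over probe sets (0.83 ± 0.21, limma adjusted p = 0.0291), although a brighter one stood for the gene. Among 12 mitosis genes 0 were called and 4 had an unadjusted p under 0.05, against 4081 of all 18193 genes at that p. Of the mitosis genes 12 of 12 were above 0 with a median of 0.28, whereas 9721 of all 18193 genes were above 0 with a median of 0.0091. Kif11, a spindle motor, was at 0.39 ± 0.12 (limma adjusted p = 0.0533) and Cdc20, which activates the anaphase-promoting complex, at 0.27 ± 0.09 (limma adjusted p = 0.0749). Kif11 was called in 7 of 24 other ways of processing, 3 of them with 1 array left out. Cdc20 and Rrm2 were called in 2 of 24 each and Tk1 in 1 of 25. The mitosis genes move together in a tissue, so their shared sign is not 12 separate observations. Above 0 were also 15 of 15 macrophage, 5 of 5 B cell, 5 of 6 T cell, 8 of 11 fibroblast and preadipocyte and 7 of 9 brown adipocyte markers. Of the endothelial markers 1 of 14 was above 0, of smooth muscle and pericyte markers 2 of 10 and of skeletal muscle markers 1 of 13. With the macrophage mean as a covariate Rrm2 was at 0.18 ± 0.16, Tk1 at 0.026 ± 0.11, Kif11 at 0.14 ± 0.08 and Cdc20 at 0.13 ± 0.09, each closer to 0 than without it. With the endothelial mean Rrm2 was at 1.21 ± 0.47 and Tk1 at 0.53 ± 0.25, both farther from 0 and not called. With the 3' over 5' ratio they were at 1.14 ± 0.31 and 0.48 ± 0.17, and with the skeletal muscle mean at 0.73 and 0.29. No fit held the B cell or T cell mean, and the part of macrophages, B cells or T cells in these values was not tested.

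**Figure D4:**
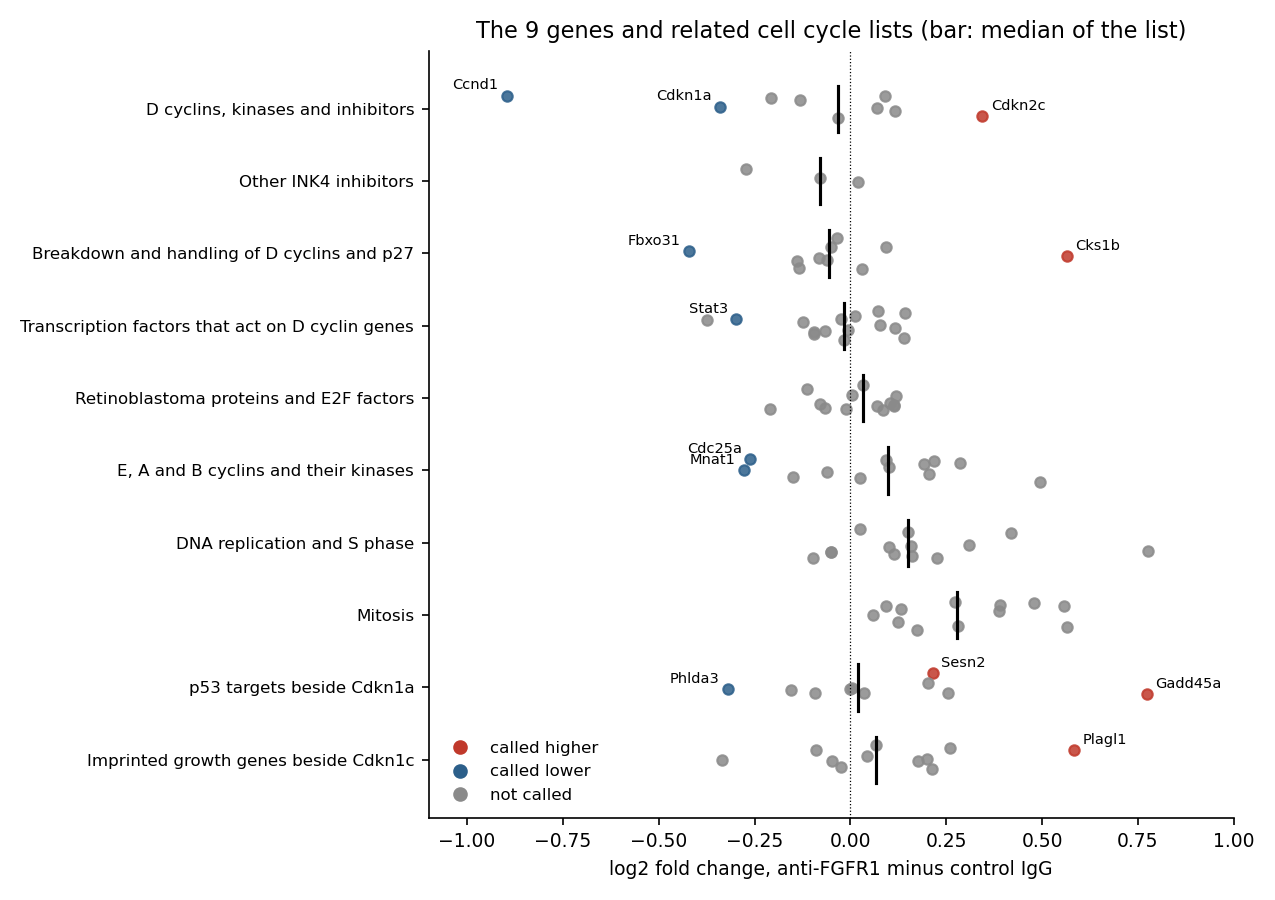
Log2 fold change, anti-FGFR1 minus control IgG (horizontal axis), of the 9 genes and of each measured gene in 9 related lists (rows), 1 point per gene, coloured by call, with a bar at the median of the list. The medians run from -0.08 for the other INK4 inhibitors to 0.28 for mitosis, where 12 of 12 points are to the right of 0 and 0 are called.

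Of the cyclins E, A and B, their kinases and activators, 2 of 12 were called, both lower, and the median was 0.10. Over all genes, 5.09% were called lower. Mnat1, the assembly factor of the kinase that activates CDKs, read 7.86 to 8.06 in anti-FGFR1 mice and 8.19 to 8.34 in control mice (-0.28 ± 0.05, limma adjusted p = 0.0019). With the endothelial mean as a covariate Mnat1 was at -0.27 and not called (limma adjusted p = 0.159). Cdc25a, the phosphatase that activates CDK2, was called on 1 of 3 probe sets at -0.26 ± 0.07 (limma adjusted p = 0.0241), with -0.15 and 0.07 on the others. The call of Cdc25a was lost in 9 of 25 other ways of processing. Among these were leaving out anti-FGFR1 replicate 3 or 6 or control IgG replicate 3, the mean of its probe sets (-0.11), the 3' to 5' ratio (-0.21) and the endothelial mean (-0.10).

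Cdkn1a is a p53 target, and 10 others were measured, of which 2 were called higher and 1 lower, with a median of 0.020. Over all genes, 2.94% were called higher and 5.09% lower, and this list was drawn up with earlier results of these data known. Gadd45a, a stress gene that also halts the cycle, read 7.28 to 7.96 in anti-FGFR1 mice and 6.41 to 6.95 in control mice, with no overlap (0.77 ± 0.11, limma adjusted p = 0.0006). Sesn2, a stress-induced brake on mTORC1, was at 0.21 ± 0.06 (limma adjusted p = 0.0336), a call lost in 13 of 25 other ways of processing. The other Sesn2 probe set was at 0.22 ± 0.09 and not called in the fit over probe sets (limma adjusted p = 0.197). Phlda3, a repressor of AKT, read 12.84 to 12.97 in anti-FGFR1 mice and 13.16 to 13.35 in control mice (-0.32 ± 0.05, limma adjusted p = 0.0006), and its call ended with the endothelial mean as a covariate (-0.36, limma adjusted p = 0.0577). Called genes of the list therefore lay on either side of 0. Of 11 imprinted growth genes measured beside Cdkn1c, 1 was called, higher, with a median of 0.07. This was Plagl1, a zinc finger factor of the imprinted network, at 0.58 ± 0.12 (limma adjusted p = 0.0096) on 1 of 3 probe sets, with 0.14 and 0.11 on the others, and its call was lost with the macrophage mean as a covariate (0.36). With the endothelial mean Plagl1 was at 1.15 and called, and the mean of its probe sets (0.28) was called too.

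The genes whose levels tracked Ccnd1 most closely from mouse to mouse were found with the group means taken off, by Pearson's r over the 12 arrays. They were Gsdmd (r = 0.891), Syt13 (0.879), Dlgap4 (0.877), Anapc5 (0.876) and Fabp6 (0.858). These are the top of 18193 genes ranked on 12 arrays that share their normalization, so r is a description. Of the 5, Dlgap4 was called, at -0.39 ± 0.04 (limma adjusted p = 0.00015), and the other 4 were not, at 0.15, 0.11, -0.06 and -0.05 for Gsdmd, Syt13, Anapc5 and Fabp6. Syt13 and Fabp6 averaged below the medians of the arrays in both groups.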

How the data were processed

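Groups of 6 mice follow the labels, with 1 one-colour array per mouse. The authors deposited log2 values for each probe set on each array. The tools named per the submitters' processing notes are RMA and limma, without versions. RMA corrects background, normalizes arrays together and summarises probes, which shrinks differences of dim probe sets. Which arrays were normalized together and the genome build are not given in the sources used here. Values of 45101 probe sets ran from 3.16 to 14.9, with array medians of 7.19 to 7.23. There are no counts or depth, so precision is limited by the number of arrays.

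Gene names came from the platform's annotation, and symbols were updated through Entrez identifiers (34741 matched). Control probe sets (64), those with several genes (932) and those without an entry (9211) were left out. These counts can overlap, so with the kept probe sets they do not add up to the number on the array. The comparison used limma 3.58.1 (two-sided moderated test, no covariates) under R 4.3.3, with data.table version 1.17.8 for input, on 18193 genes and separately on 34945 probe sets. The fit was tested on simulated data. Marker means were compared by a two-sided exact permutation test over 924 assignments.

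The 9 genes, 9 pathway lists, 8 marker lists and tests were chosen with earlier results of these data known. Named genes are the 9 genes with all their probe sets, each list's called genes or otherwise its 2 smallest p values, and the 5 genes most like Ccnd1. The alternatives were other normalizations, probe set rules, variance models, array weights, a filter on dim genes, covariates, a replicate block and leaving out arrays.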

Additional observations from a re-analysis of the deposited data

Results flagged for a closer look

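Of 50 groups of 6 values tested (25 probe sets in each group of mice), 4 had a value far from the rest by Dixon's criterion, where chance gives about 1 in 20. All 4 were control IgG mice. Ccnd1 probe set 1417419_at read 9.48 in control IgG replicate 3, above the other controls at 9.03 to 9.12. Ccnd3 probe set 1444323_at read 8.55 in control IgG replicate 1, above the others at 8.09 to 8.20. Cdkn1b probe set 1434045_at read 9.03 in control IgG replicate 1, below the others at 9.38 to 9.44. Cdkn2c probe set 1416868_at read 10.93 in control IgG replicate 5, below the others at 11.08 to 11.15.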

How the results depend on the processing

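Ccnd1 and Cdkn2c kept direction and call in 24 of 25 alternatives and Cdkn1a in 16 of 25. All alternatives reuse the same mice and are not separate evidence. With the endothelial mean as a covariate 178 genes and 0 of the 9 were called; Ccnd1 was then at -0.94, Cdkn1a at -0.14 and Cdkn2c at 0.32, all not called, while the uncalled Ccnd2 (0.18) and E2f5 (-0.0029) turned direction. That mean separates the groups, so the covariate takes up part of the comparison. With the 3' to 5' ratio, 688 genes, 950 probe sets and 3 of the 25 probe sets were called, and Cdkn1a (-0.29) was not. With the macrophage mean the uncalled Cdk6 (-0.16), Cdk4 (-0.010) and Cdkn1b (-0.0045) turned, Ccnd2 turned with the 3' to 5' ratio (0.031), and Cdkn1b (-0.16) and E2f5 (-0.026) turned with the most variable probe set; Cdkn1b also turned with the mean of its probe sets (-0.044). The cause was not tested.

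Leaving out 1 array gave 1043 to 1698 called genes and 2 to 4 of the 9, with Cdkn1a between -0.39 and -0.28 and Cdkn1c between -0.26 and -0.16. Without the 2 arrays lowest in muscle markers, 1016 genes and 3 of the 9 were called. A second quantile normalization gave 732 genes higher and 760 lower (50.9% of calls lower, against 63.4% as deposited), and 5 of the 9 stayed below 0. Deviations of mice that share a replicate number correlated at 0.29, 0.33 and 0.22 for replicates 1 to 3 but at -0.0038, -0.29 and -0.12 for replicates 4 to 6, and 2 of 6 anti-FGFR1 arrays correlated best with their own number. The numbers were therefore not used as a pairing. With a replicate block, 1337 genes, 3 of the 9, 2301 probe sets, 5 of the 25, 5 of 12 mitosis genes (Kif11 and Cdc20 among them) and 2 of 13 replication genes (Rrm2 and Tk1) were called, and Cdc25a and Sesn2 were not. Dim values limit 2 of the 7 Ccnd2 probe sets and 1 of the 2 of Cdkn1b.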
